A study of Ovis aries with 8 samples.

Results

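The genes described here encode the machinery that couples excitation to contraction in skeletal muscle: the L-type calcium channel of the transverse tubule, the ryanodine receptor of the sarcoplasmic reticulum and the proteins that hold both at the junction between these membranes. The set holds 10 symbols, *CACNA1S*, *CACNA2D1*, *CACNB1*, *CACNG1*, *STAC3*, *RYR1*, *JPH1*, *JPH2*, *TRDN* and *ASPH*, and all 10 were found among the 11247 genes of the count table. The other genes were listed by function around *CACNA2D1*, which was chosen by its difference between SM20 and CON in these same lambs. The diet differences of the 10 genes are therefore given as a description. Where calls of the fits across all genes are mentioned for them, it is to set out how the set arose and the background, and they support nothing.

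The RNA came from longissimus thoracis, a back muscle, of castrated Dorper by Santa Inês crossbred lambs (*Ovis aries*). The 4 SM20 lambs ate a diet with soybean molasses, the sugary syrup left when soy protein is concentrated, at 20% inclusion, and the 4 CON lambs ate the control diet. The trial had 20 lambs, 10 per diet, and the sequenced lambs were a random draw from each diet. The age of the lambs is not given in the sources used here.

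In a skeletal fibre the action potential runs into the transverse tubules, where the L-type channel acts as the voltage sensor. The channel is in mechanical contact with the ryanodine receptor, which then releases calcium from the reticulum to the myofibrils. The site where the tubule meets the reticulum is the triad, and junctophilins tie its membranes together.

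Total counts were between 8675527 and 10305590 in the SM20 libraries and between 9291292 and 11210065 in the CON libraries. The 10 genes were counted deeply, with between 1105 and 126224 reads per gene and library, so that spread between lambs and not counting error set the precision. Markers of skeletal muscle were abundant: 9 of 11 were in the table and none was at 0. Their summed level ran from 134565 to 136610 CPM (reads scaled to library size) in SM20 and from 116542 to 185082 CPM in CON. In these bulk samples a larger share of cells of a type and more RNA per cell cannot be told apart.

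*CACNA2D1* encodes the alpha2-delta subunit, an extracellular auxiliary protein that assists surface delivery and gating of calcium channels and is the binding site of gabapentin. Its level was 261.8, 235.4, 270.1 and 290.8 CPM in SM20 lambs 1 to 4, against 163.3, 154.1, 143.9 and 142.8 CPM in CON lambs 1 to 4. Every SM20 lamb lay above every CON lamb, and the lowest SM20 lamb was well clear of the highest CON lamb. The means were 264.5 ± 22.9 CPM in SM20 and 151.0 ± 9.67 CPM in CON (SD, n = 4 per diet), a fold of 1.75 and a log2 fold change of 0.81 ± 0.12 (SE). In raw reads this was 2375 to 2926 per SM20 library against 1369 to 1592 per CON library. A larger log2 fold change was found for few genes: that of *CACNA2D1* was above 98.4% of all genes tested. Within a diet the gene varied little, with a coefficient of variation (CV) of 8.67% in SM20 and 6.40% in CON.

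In the fit across all genes 1 of the 10 members was called, *CACNA2D1*, where 0.0511% of all genes tested were called at an adjusted p under 0.05 by the quasi-likelihood test of edgeR. Since that call is what placed the gene at the head of the set, nothing is read from the count. The call was lost when any 1 of the 8 lambs was left out, with median-of-ratios or upper-quartile scaling in edgeR, with no filter on low counts, and with the level of slow-fibre markers as a covariate. DESeq2 called 2 of the 10, *CACNA2D1* and *TRDN*, where it called 6.28% of the genes it tested. The CPM ranges of the diets did not overlap for the same pair, against 12.2% of all genes tested. Over the 10 members 6 log2 fold changes were positive, against 50.7% of all genes tested, and the median was 0.21 beside 0.01 for all genes. Without *CACNA2D1* the median of the other 9 members was 0.12.

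**Figure D1:**
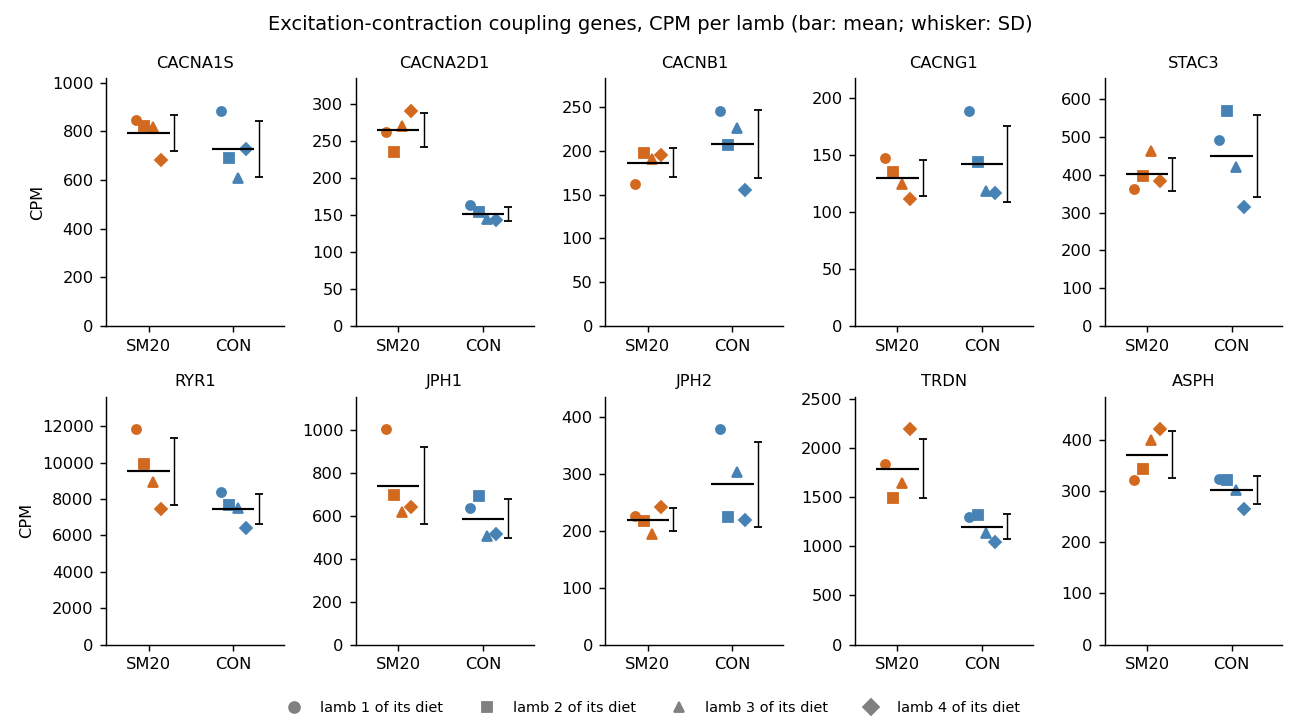
Level of each of the 10 genes in CPM, with a linear axis from 0 in each panel, SM20 left of CON, 1 point per lamb, a bar for the mean and a whisker for the SD (n = 4 per diet). The diets are apart for CACNA2D1 (235.4 to 290.8 against 142.8 to 163.3 CPM) and TRDN (1488 to 2193 against 1045 to 1316 CPM) and overlap for the other 8.

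The other subunits of the skeletal L-type channel did not share the pattern of *CACNA2D1*. *CACNA1S* encodes the pore-forming alpha1 subunit that senses voltage. It was at 848.5, 821.1, 816.4 and 682.3 CPM in SM20 lambs 1 to 4, against 885.1, 692.7, 607.5 and 726.8 CPM in CON lambs 1 to 4. The diets overlapped throughout, since both the highest and the lowest lamb were on CON. The log2 fold change was 0.12 ± 0.14 (SE), and ran from 0.04 without CON lamb 3 to 0.23 without CON lamb 1.

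*CACNB1* encodes the intracellular beta subunit, which supports the targeting of the alpha1 subunit to the triad in mouse and zebrafish muscle. It ranged from 162.7 to 198.0 CPM in SM20 and from 155.1 to 245.9 CPM in CON, with a log2 fold change of -0.16 ± 0.15 (SE). *CACNG1*, the gamma subunit, a small membrane protein that dampens the channel current in mouse muscle, ranged from 111.2 to 147.8 CPM in SM20 and from 117.2 to 189.0 CPM in CON. Its log2 fold change was -0.13 ± 0.17 (SE). *STAC3* encodes the adaptor that helps the channel reach the tubule and stay coupled to the ryanodine receptor, and it is mutated in Native American myopathy in humans. It ranged from 361.7 to 464.1 CPM in SM20 and from 314.4 to 569.5 CPM in CON, at -0.16 ± 0.18 (SE). For all 3 genes the SM20 lambs lay within or near the CON range and the CON lambs were the more spread, with a CV for *CACNB1* of 8.70% in SM20 against 18.7% in CON, and for *STAC3* of 11.0% in SM20 against 24.2% in CON. These small differences moved with the libraries: without CON lamb 1 the value was 0.04 for *CACNG1* and -0.07 for *CACNB1*, without CON lamb 2 it was -0.04 for *STAC3*, and without CON lamb 4 it was between -0.30 and -0.22 for these 3 genes. When the slow-fibre marker level was added to the model, which was decided after the data had been seen, it was 0.12 for *CACNG1* and 0.03 for *STAC3*. In the RefSeq annotation of ARS-UI_Ramb_v3.0 *STAC3* overlaps *NDUFA4L2* and *R3HDM2*, so its reads could be shared with them if strand was not used in the counting.

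**Figure D2:**
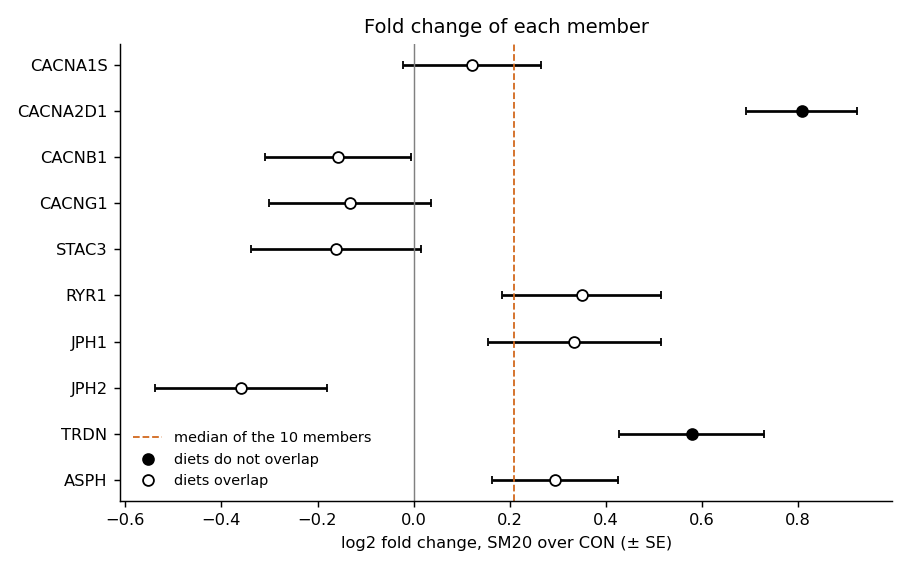
Log2 fold change of SM20 over CON for each of the 10 genes with its SE as the whisker (edgeR, n = 4 lambs per diet), filled where the diets do not overlap, and the median of the 10 as a dashed line at 0.21. CACNA2D1 stands at 0.81 and the other channel genes CACNA1S, CACNB1 and CACNG1 between -0.16 and 0.12.

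A ratio of reads inside a library needs no scaling factor. Gene length cancels when the same ratio is compared between lambs, unless effects of transcript length or RNA quality differ between lambs. Such effects were not tested. For every 100 *CACNA1S* reads there were 30.8, 28.7, 33.1 and 42.6 *CACNA2D1* reads in SM20 lambs 1 to 4, against 18.5, 22.3, 23.7 and 19.6 in CON lambs 1 to 4. The diets did not overlap in this ratio, whose mean was 33.8 ± 6.15 in SM20 and 21.0 ± 2.39 in CON (SD, n = 4 per diet), or 1.61 times as high in SM20. Leaving out single lambs moved that factor between 1.47 and 1.69. Other auxiliary subunits did not show this against the same pore gene: *CACNB1* reads per 100 *CACNA1S* reads ranged from 19.2 to 28.6 in SM20 and from 21.3 to 37.2 in CON. For *CACNG1* the range was 15.3 to 17.4 in SM20 and 16.1 to 21.4 in CON. *CACNA2D1* was chosen by its diet difference and these other subunits were not, so nothing is read from the contrast.

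*RYR1* encodes the calcium release channel of the reticulum, a giant protein whose human mutations underlie malignant hyperthermia and central core disease. It was at 11843, 9907, 8948 and 7452 CPM in SM20 lambs 1 to 4, against 8387, 7653, 7494 and 6389 CPM in CON lambs 1 to 4. SM20 lambs 1 to 3 were above every CON lamb, and SM20 lamb 4 was below 3 of the 4 CON lambs. The log2 fold change was 0.35 ± 0.17 (SE), or 0.23 without SM20 lamb 1, the highest lamb. Relative to *RYR1*, *CACNA2D1* reads numbered 2.21 to 3.90 per 100 in SM20 and 1.92 to 2.23 in CON, an overlap of the lowest SM20 with the highest CON lamb.

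**Figure D3:**
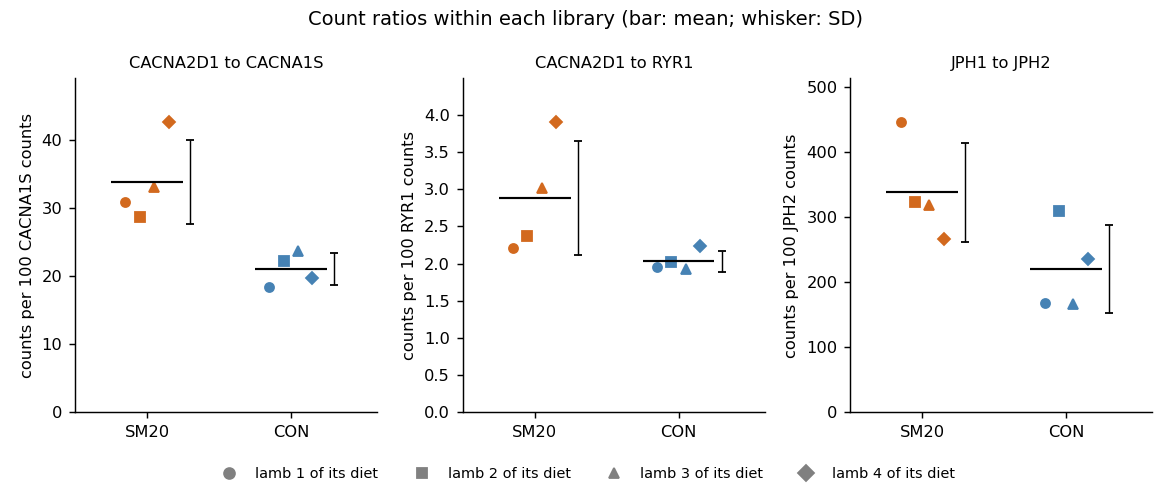
Read-count ratios within each library, with SM20 left of CON, 1 point per lamb, a bar for the mean and a whisker for the SD (n = 4 per diet), all axes linear from 0. The CACNA2D1 to CACNA1S ratio is 28.7 to 42.6 in SM20 and 18.5 to 23.7 in CON, while the other pairs overlap between the diets.

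The junctophilins differed in direction. *JPH1*, the main junctophilin of skeletal muscle, was at 1004, 698.2, 618.2 and 643.0 CPM in SM20 lambs 1 to 4, against 634.7, 692.4, 506.0 and 516.1 CPM in CON lambs 1 to 4. SM20 lamb 1 was far above the rest, and the other SM20 lambs lay within or just above the CON range. The log2 fold change was 0.34 ± 0.18 (SE), and 0.15 without SM20 lamb 1. *JPH2*, the junctophilin shared with the heart, was at 225.3, 216.7, 194.6 and 241.9 CPM in SM20 lambs 1 to 4, against 378.7, 224.3, 303.7 and 219.7 CPM in CON lambs 1 to 4. CON lambs 1 and 3 were above every other lamb, and the value of -0.36 ± 0.18 (SE) became -0.18 without CON lamb 1. The ratio of *JPH1* to *JPH2* reads, per 100 *JPH2* reads, was 337.8 ± 76.3 in SM20 and 219.4 ± 67.5 in CON (SD, n = 4 per diet), with ranges of 265.9 to 445.7 and 166.6 to 308.6 that overlapped.

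The remaining genes encode partners of the ryanodine receptor within the reticulum. *TRDN* encodes triadin, which anchors the calcium store protein calsequestrin next to the release channel. It was at 1839, 1488, 1651 and 2193 CPM in SM20 lambs 1 to 4, against 1299, 1316, 1141 and 1045 CPM in CON lambs 1 to 4. All SM20 lambs were above all CON lambs, though as a ratio the closest pair of lambs was nearer than for *CACNA2D1*. The means were 1793 ± 303.1 CPM in SM20 and 1200 ± 130.2 CPM in CON (SD, n = 4 per diet), a log2 fold change of 0.58 ± 0.15 (SE), the largest in the set after *CACNA2D1*. It was 0.47 without SM20 lamb 4, which had the highest level.

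*ASPH* encodes junctin, a relative of triadin at the same site, and also, from other transcripts of the gene, the enzyme aspartate beta-hydroxylase. Gene-level reads do not separate these products. *ASPH* was at 322.0, 343.7, 399.6 and 421.1 CPM in SM20 lambs 1 to 4, against 323.6, 321.2, 302.0 and 264.5 CPM in CON lambs 1 to 4. SM20 lamb 1 alone lay within the CON range, and the log2 fold change was 0.30 ± 0.13 (SE). The gene overlaps *CLVS1* in the same RefSeq annotation, which leaves its read assignment uncertain to that extent.

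Among themselves the genes formed looser and tighter pairs. After the mean of each diet was taken out of log2 CPM, 38 of the 45 pairs had a positive Pearson r over the 8 lambs, with a median of 0.31. With diet means kept, 29 of the 45 were positive, with a median of 0.24. No background of pairs of other genes was taken. With diet means removed, *TRDN* was the member closest to *CACNA2D1*, with r = 0.88 and Spearman rho = 0.81, followed by *ASPH* with r = 0.75 and rho = 0.81. *CACNG1* had r = 0.25 with *CACNA2D1*, *CACNA1S* had r = 0.08 (rho = 0), and *RYR1* had r = -0.18 (rho = -0.19). With diet means kept, r was 0.94 for *TRDN*, 0.82 for *ASPH*, 0.60 for *RYR1*, 0.38 for *CACNA1S* and -0.18 for *CACNG1*. The order with diet means removed rests on SM20 lambs 2 and 4, the 2 lambs farthest from the median of *CACNA2D1* once diet means are taken out. Without them r was 0.71 for *TRDN* and 0.68 for *ASPH*, against 0.87 for *CACNG1*, 0.74 for *CACNA1S*, 0.73 for *STAC3* and 0.44 for *RYR1*. Other tight pairs were *CACNA1S* with *CACNG1* (r = 0.85) and *RYR1* with *JPH1* (r = 0.78). These are descriptions over few lambs that share library depth and scaling, and carry no p. SM20 lamb 4 had the highest *CACNA2D1*, *TRDN* and *ASPH* of its diet and the lowest *RYR1*, *CACNA1S* and *CACNG1*.

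**Figure D4:**
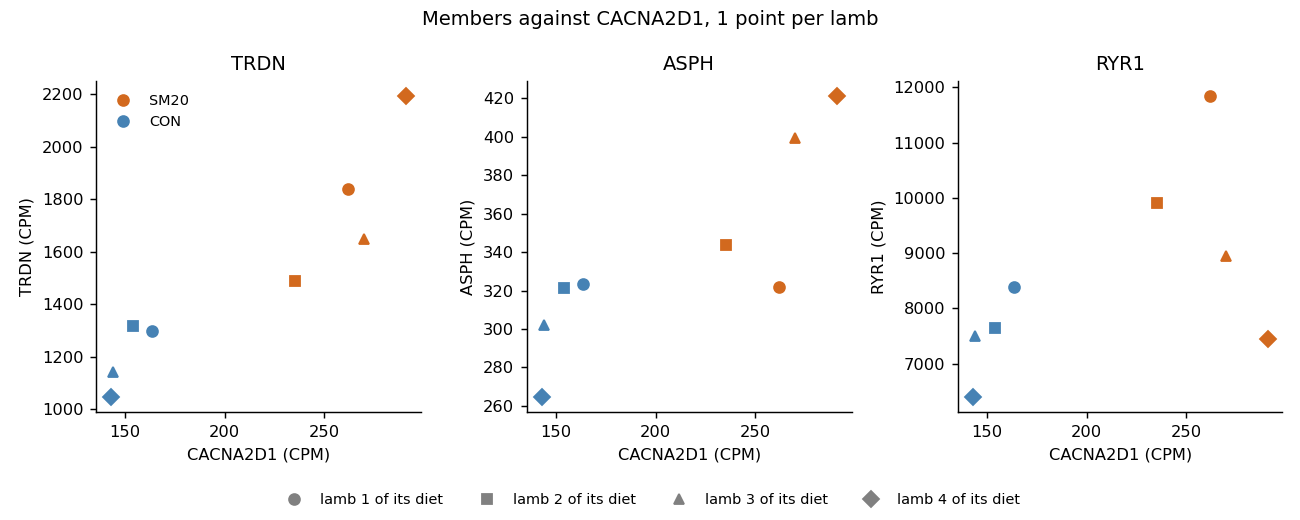
TRDN, ASPH and RYR1 (vertical axes, CPM) against CACNA2D1 (horizontal axis, CPM), 1 point per lamb, coloured by diet; axes do not start at 0. TRDN and ASPH tend to be higher where CACNA2D1 is higher within each diet, and so does RYR1 in CON. In SM20 lamb 4 combines the highest CACNA2D1 (290.8 CPM) with the lowest RYR1 of its diet (7452 CPM).

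Among 5939 genes with a mean of at least 10 CPM, those whose log2 CPM followed *CACNA2D1* most closely over the 8 lambs were *SPPL2A*, an intramembrane protease (r = 0.99), *KIAA0100* (0.97), the splicing helicase *DDX46* (0.97), the early endosome tether *EEA1* (0.97) and *NF1*, a negative regulator of Ras (0.97). All 5 had diets that did not overlap, against 12.2% of all genes tested, and this r includes the diet difference. Since the diets are apart for *CACNA2D1* itself, choosing by this r favours such genes, and nothing is read from that count. With diet means removed, r was 0.92 for *SPPL2A* and 0.86 for *EEA1*, and between 0.53 and 0.61 for the others. With library size alone it was 0.67 for *EEA1*. With single lambs left out it ran from 0.33 to 0.71 for *KIAA0100*, from 0.37 to 0.91 for *DDX46* and from 0.38 to 0.67 for *NF1*. The genes closest to *CACNA2D1* with diet means removed were *COA8*, a cytochrome oxidase assembly factor (0.97), the phospholipase *PLA2G12A* (0.97), the lysosomal membrane protein *LAPTM4A* (0.96), the chromatin reader *PHF21A* (0.95) and the transcriptional repressor *DR1* (0.95). The diets overlapped for each of these 5. With diet means kept, r was 0.69 for *DR1*, 0.51 for *LAPTM4A*, 0.06 for *COA8*, 0.03 for *PHF21A* and -0.17 for *PLA2G12A*. With library size alone and diet means removed, r was 0.74 for *COA8* and 0.87 for *PLA2G12A*.

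The wider pathway was followed in 9 lists of genes outside the set, of which 114 of 134 were in the table and 105 passed the expression filter. By edgeR 0 of the 105 genes passed an adjusted p of 0.05, where 15 had an unadjusted p under 0.05, against 18.3% of all genes tested. DESeq2 called 5 of the 77 it tested, beside 6.28% of all genes. These were *CACHD1*, *ATP2B1* and *CAMK2D* as higher and *CHRNE* and *S100A1* as lower in SM20. Of the 105, 56 had a positive log2 fold change, and the median was 0.02. The CPM ranges of the diets did not overlap for 7 of the 105, against 12.2% of all genes tested.

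Other calcium channel subunits had 3 of 11 tested genes positive and a median of -0.17. *CACHD1*, an alpha2-delta-like protein, was nearest the threshold. It was at 52.6, 51.2, 41.7 and 45.0 CPM in SM20 lambs 1 to 4, against 31.4, 33.3, 30.5 and 28.4 CPM in CON lambs 1 to 4. The diets did not overlap, and the log2 fold change was 0.63 ± 0.12 (SE), with an adjusted p of 0.0817 by edgeR and 0.00222 by DESeq2. *CACNA1A*, a pore subunit of nerve terminals, was at -0.84 ± 0.36 (edgeR adjusted p = 0.247), on a mean of 1.06 CPM in SM20 and 1.87 CPM in CON. The true alpha2-delta paralogs of *CACNA2D1* were picked out after their values were seen. *CACNA2D3* averaged 13.2 ± 10.9 CPM in SM20 and 7.82 ± 2.81 CPM in CON, with SM20 lamb 2 at 28.5 CPM. Its log2 fold change of 0.75 ± 0.51 (SE) was 0.04 without that lamb. *CACNA2D4* averaged 9.25 ± 1.57 CPM in SM20 and 10.4 ± 1.06 CPM in CON (SD, n = 4 per diet). Neither passed by edgeR (adjusted p = 0.456 and 0.653). *CACNA2D2* had at most 4 reads in any library and was not tested. Thrombospondins, extracellular ligands of the alpha2-delta subunit, and the receptor *LRP1* had 4 of 5 genes positive (median 0.24), none past the threshold: *THBS1* was at 0.88 ± 0.42 (edgeR adjusted p = 0.299), or 0.43 without SM20 lamb 1, and *THBS3* at -0.49 ± 0.37 (0.506), or -0.87 without SM20 lamb 1 and -0.28 without SM20 lamb 3.

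Other release channels and their regulators had 10 of 16 genes positive and a median of 0.12. *CAMK2D*, a calmodulin-dependent kinase that phosphorylates calcium-handling proteins in the heart, was at 239.2, 239.8, 246.0 and 295.5 CPM in SM20 lambs 1 to 4, against 210.6, 195.7, 162.2 and 172.6 CPM in CON lambs 1 to 4. The diets were apart, and the log2 fold change of 0.46 ± 0.13 (SE) did not pass by edgeR (adjusted p = 0.121; 0.0352 by DESeq2). *S100A1*, a calcium-binding protein that modulates the ryanodine receptor, was at 10.8, 13.0, 10.3 and 12.6 CPM in SM20 lambs 1 to 4, against 43.7, 16.0, 18.9 and 17.9 CPM in CON lambs 1 to 4. The diets were again apart, with CON lamb 1 far above the others: the log2 fold change of -1.04 ± 0.30 (edgeR adjusted p = 0.127; 0.0232 by DESeq2) was -0.59 without that lamb.

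Structural genes of the triad and the tubule were balanced, with 8 of 18 positive and a median of -0.01. *BVES*, a membrane protein of the popeye family, was at 0.42 ± 0.15 (edgeR adjusted p = 0.178), and *TMEM38B*, a counter-ion channel of the reticulum, at 0.30 ± 0.13 (0.266). Among genes of surface excitation 5 of 11 were positive (median -0.05). *FXYD1*, phospholemman, a regulator of the sodium pump, averaged 149.1 ± 9.85 CPM in SM20 and 193.0 ± 21.7 CPM in CON (SD, n = 4 per diet; edgeR adjusted p = 0.152). At the neuromuscular junction 5 of 11 were positive (median -0.04). *CHRNE*, the epsilon subunit of the adult acetylcholine receptor, was at 55.4, 43.1, 71.8 and 42.6 CPM in SM20 lambs 1 to 4, against 97.1, 86.5, 84.3 and 77.0 CPM in CON lambs 1 to 4. The diets did not overlap, and the log2 fold change was -0.70 ± 0.17 (SE), with an adjusted p of 0.107 by edgeR and 0.0151 by DESeq2. *LRP4*, the agrin receptor, was at 0.32 ± 0.21 (edgeR adjusted p = 0.443), or 0.18 without SM20 lamb 2 and 0.49 without SM20 lamb 1.

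Store-operated entry and surface calcium transport had 8 of 12 positive (median 0.07). *ATP2B1*, a calcium pump of the plasma membrane, was at 178.9, 176.1, 169.4 and 182.5 CPM in SM20 lambs 1 to 4, against 121.9, 146.0, 102.7 and 92.8 CPM in CON lambs 1 to 4. The diets were apart, with the SM20 lambs close together, and the log2 fold change was 0.61 ± 0.15 (SE), with an adjusted p of 0.107 by edgeR and 0.0123 by DESeq2. *SARAF*, which turns store-operated entry off, was at 0.88 ± 0.30 (edgeR adjusted p = 0.170), or 0.57 without SM20 lamb 3. In the calcineurin list 12 of 15 genes were positive, against 50.7% of all genes, with a median of 0.32. Of the 15, 4 had an unadjusted p under 0.05, against 18.3% of all genes, and 0 passed by edgeR or DESeq2. *PPP3R1*, the regulatory subunit of calcineurin, was at 0.44 ± 0.16 (edgeR adjusted p = 0.187), and *NFATC4*, a transcription factor that calcineurin activates, at -0.64 ± 0.25 (0.210).

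The calcium store itself had 1 of 6 genes positive (median -0.14). Of these genes *ATP2A2* and *CASQ2* are also on the slow-fibre marker list, and so enter the slow-fibre level used as a covariate. *CASQ2*, the cardiac and slow-fibre calsequestrin that triadin and junctin hold, was at -0.35 ± 0.26 (edgeR adjusted p = 0.501), and *CALR*, calreticulin, at -0.17 ± 0.13 (0.513). *CASQ2* was at -0.15 without CON lamb 1 and -0.56 without CON lamb 3, and *CALR* at -0.10 without CON lamb 2.

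**Figure D5:**
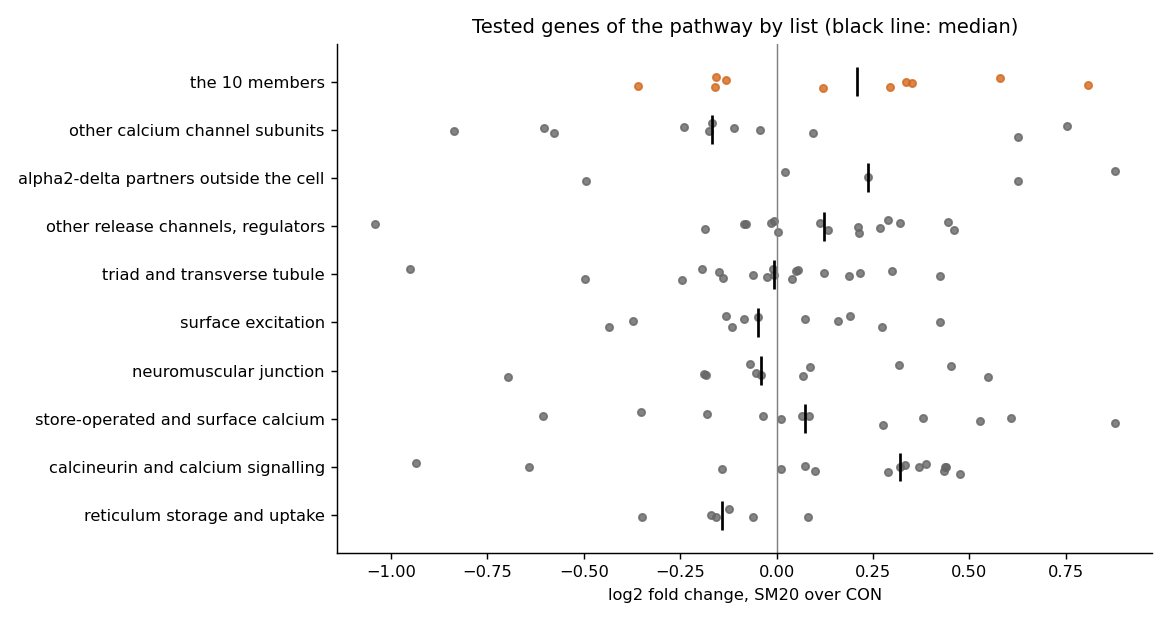
Log2 fold change of SM20 over CON for the tested genes of each list, 1 point per gene, with the median as a black line; the 10 members stand in the top row. List medians run from -0.17 for other calcium channel subunits to 0.32 for calcineurin and calcium signalling, beside 0.21 for the members.

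The levels of some marker lists are given beside these values. By edgeR 0 of 8 slow-fibre, 5 satellite cell and 50 ribosomal protein genes passed the threshold, against 0.0511% of all genes tested. In the same order 3, 1 and 20 of them had an unadjusted p under 0.05, against 18.3% of all genes tested. DESeq2 called 0, 0 and 3, beside 6.28% of all genes it tested. All 8 slow-fibre markers were in the table, none was at 0 in any library, and all 8 were lower in SM20 by log2 fold change (median -0.57). Their summed level ran from 11061 to 15786 CPM in SM20 and from 10698 to 25738 CPM in CON, with CON lamb 1 the highest, so that the diets overlapped. With that level as a covariate the log2 fold change of *CACNA2D1* was 0.86 ± 0.13 (SE), and 0 genes were called. Fast-fibre markers were mostly lower in SM20 too, with 6 of 7 tested genes negative (median -0.15). Their sum ran from 121783 to 149260 CPM in SM20 and from 109139 to 149220 CPM in CON. The mean of that sum went the other way, at 135430 CPM in SM20 and 133468 CPM in CON. Of 9 skeletal muscle markers 8 were negative (median -0.19), and DESeq2 called 1 as higher in SM20. The fast-fibre and skeletal muscle lists share *TNNT3*, *TNNC2* and *MYLPF*, so their counts are not separate where these were tested. All 5 satellite cell markers were in the table, none was at 0, and 4 were positive, and their sum ran from 37.6 to 66.1 CPM in SM20 and from 33.9 to 45.5 CPM in CON, also overlapping. With diet means kept, the log2 of that sum had r = 0.76 with *CACNA2D1* over the 8 lambs. For the other fibre and cell type lists this r ran from -0.46 (smooth muscle and pericytes) to 0.31 (immune cells). The part of satellite cells in the *CACNA2D1* difference was not tested. Of 50 ribosomal protein genes, whose messenger RNAs are short, 49 were negative, with a median of -0.29, and the part of transcript length or RNA quality was not tested. Summed markers of endothelium, smooth muscle and pericytes, fibroblasts, adipocytes, immune cells and nerve overlapped between the diets, with 0 genes past the threshold by edgeR. Of those markers 3 of the 8 endothelial genes had an unadjusted p under 0.05, and DESeq2 called 1 endothelial gene.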

How the data were processed

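Whole-number read counts per gene symbol were deposited by the authors in 1 table for 8 libraries, 4 per diet, each from 1 lamb. Per the labels' protocols, RNeasy columns and a stranded TruSeq kit for messenger RNA were used. Per the submitters' processing notes the tools were Trim Galore, cutadapt, STAR, featureCounts and DESeq2. Their versions, the build, the annotation and the strand setting are not given in the sources used.

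SM20 was compared with CON in edgeR (4.0.16, under R 4.3.3) by its quasi-likelihood test, with diet as the only term, TMM scaling and the default expression filter with a minimum count of 10. This kept 9779 of 11247 genes, and the 10 members all passed. P-values were adjusted over these genes by the Benjamini-Hochberg method. DESeq2 (version 1.42.0) was an alternative, beside other scalings, other filters and leaving out each lamb. Levels are TMM-scaled CPM. The SE is the log2 fold change over the square root of F. Correlations used log2 CPM (prior count 2).

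The members, the lists and the marker genes were chosen with earlier results of these data known. The genes named outside the set were, per list, those past the threshold, or otherwise the 2 with the smallest p and a mean of at least 1 CPM, and the 5 genes most like *CACNA2D1* by each r. A gene that the rule takes is not reported here. Replicate numbers follow accession order and pair nothing.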

Additional observations from a re-analysis of the deposited data

Results flagged for a closer look

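The mean log2 CPM of the 9 members other than *CACNA2D1* was 9.25 in SM20 lamb 1, against 9.15 to 9.16 in the other SM20 lambs. This lamb stood apart from its diet by Dixon's criterion, at a gap of 0.85 of the group's range. The CON lambs ran from 8.83 to 9.31, and CON lamb 1 was higher than the flagged lamb. *RYR1* (11843 CPM) and *JPH1* (1004 CPM), both among the 9 members of this mean, were highest of the 8 lambs in SM20 lamb 1. Of 32 groups of 4 examined 1 was flagged, and chance flags about 1 in 20.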

How the results depend on the processing

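The log2 fold change of *CACNA2D1* stayed between 0.77 and 0.86 over the other tools, scalings, filters and the slow-fibre covariate, and between 0.76 and 0.86 with 1 lamb left out. It kept its direction at every setting run, and its edgeR call was lost with median-of-ratios or upper-quartile scaling, with no filter, with the slow-fibre covariate and without any 1 lamb. The median over the 10 members was between 0.18 and 0.29 over the first settings and between 0.12 and 0.28 over the left-out lambs. The 5 genes called in all became 1 with median-of-ratios scaling, 1 with upper-quartile scaling, 0 with no filter, 446 with DESeq2, 0 with the slow-fibre covariate chosen after seeing the data, and 0 to 0 with any 1 lamb left out. At those last settings 1476 to 1876 genes had an unadjusted p under 0.05, against 1864 with no filter and 1553 with the covariate; the cause was not tested. The 0 pathway genes called by edgeR became 5 with DESeq2 and stayed at 0 at every other setting run. None of the pathway genes whose fold changes are printed outside the set changed sign at the settings run, though *CACNA2D3* was at 0.04 without SM20 lamb 2. With 1 lamb left out, r with diet means removed was between 0.81 and 0.96 for *TRDN* and between 0.62 and 0.89 for *ASPH*. No paired analysis was possible because the labels give no replicate numbers shared between the diets. With 4 lambs per diet, small differences such as those of *CACNB1* and *STAC3* were not detectable at this spread.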
